A study of Mus musculus with 4 samples.

Results

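The lymphocyte and MHC class II genes are 36 genes that lymphocytes and antigen-presenting cells are known for, measured here in the brown adipose tissue (BAT) of mice. They were listed by name to ask whether the BAT of 1 vehicle-treated mouse held lymphoid tissue, and they make up 36 of 20145 named genes and 46 of 55681 probes on the array. By their roles, 9 genes belong to B cells, 16 to T cells, 3 to cytotoxic and natural killer (NK) cells, 5 to antigen presentation by MHC class II, and 3 to leukocytes of all kinds. The list was chosen by the signals of the same 4 arrays, on which lymphocyte genes had been seen to be high in vehicle replicate 2, so the height of that vehicle-treated mouse over the others is given as a description and was not tested.

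The samples were BAT of male maP2-Fv2E-PERK transgenic (Tg) mice on the C57/BL6N strain, 8 weeks old, taken 12 h after a single intraperitoneal injection. 2 Tg mice received vehicle and 2 received AP20187 (AP), a synthetic ligand that dimerizes and activates Fv2E-PERK, a fusion of a dimerization domain with the kinase domain of the eIF2α kinase PERK. The sample labels give the AP dose as 1 ng/g, and a legend of the study gives another amount. All 4 mice carried the transgene, which is driven by the aP2 (Fabp4) promoter, so vehicle-treated mice differed from AP-treated mice by the ligand and not by the genotype. That promoter is used for expression in fat cells and can also be active in macrophages.

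B cells detect antigen with a receptor whose signal is passed on by the chains CD79A and CD79B, and T cells with a receptor held in the CD3 complex. MHC class II proteins display peptides on dendritic cells, macrophages and B cells, with the invariant chain CD74 guiding them through the cell and CIITA switching their genes on. Brown fat holds resident leukocytes, mostly macrophages with fewer lymphocytes, and lymph nodes lie embedded in or beside several fat depots of the mouse.

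Each mouse had its own one-color Agilent array, and values are log2 of the processed signal over the array's 75th percentile, so 1 unit is a doubling. Between 46.4% and 49.0% of spots were well above background, and that 75th percentile was an intensity of 119 in vehicle replicate 1, 159 in vehicle replicate 2, 128 in AP replicate 1 and 118 in AP replicate 2. The lowest signal called well above background was therefore −3.93 in vehicle replicate 2 and −3.75 to −3.65 in the other 3 mice. The 4 arrays lay on 1 slide and were read in 1 scan, and position on the slide and treatment cannot be told apart. Vehicle replicate 2 was the array in column 2 of the slide and the other 3 arrays lay in column 1, so column and the height of vehicle replicate 2 cannot be told apart either. As a check of the treatment, Trib3, a pseudokinase gene induced by eIF2α phosphorylation, stood at 2.78 and 2.33 with vehicle and at 6.26 and 8.01 with AP. Nothing in the labels says more of the replicates than their numbers, and the p-values here measure only the spread between these 4 samples.

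The promoters of H2-Aa and H2-Eb1, which encode the alpha chain of I-A and the beta chain of I-E, and of Ltb, which encodes the lymphocyte cytokine lymphotoxin beta, are shown because these 3 genes were highest in the same mouse. The sequences are the 250 bases before the gene start from RefSeq on GRCm38.p6, and 24 of the 36 genes had an entry in that table. H2-Aa lies on the minus strand at chr17:34287824-34288073, H2-Eb1 on the plus strand at chr17:34305617-34305866 and Ltb on the plus strand at chr17:35194257-35194506. Capitals mark GCAACT, the core of the X box of MHC class II promoters, and CTGATTGG, their Y box, in the first pair, and a kappa B site, which reads 5′ to 3′ on the opposite strand, in Ltb.
H2-Aa: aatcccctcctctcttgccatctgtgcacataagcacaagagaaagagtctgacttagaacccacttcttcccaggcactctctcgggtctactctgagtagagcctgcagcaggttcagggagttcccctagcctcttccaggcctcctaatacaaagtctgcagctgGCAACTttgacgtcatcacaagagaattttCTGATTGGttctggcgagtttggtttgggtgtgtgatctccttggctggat
H2-Eb1: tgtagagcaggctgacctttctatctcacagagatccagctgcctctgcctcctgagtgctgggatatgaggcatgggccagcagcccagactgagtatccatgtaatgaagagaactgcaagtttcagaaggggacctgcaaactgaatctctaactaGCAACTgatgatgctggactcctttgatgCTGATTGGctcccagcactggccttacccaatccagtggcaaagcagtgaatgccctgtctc
Ltb: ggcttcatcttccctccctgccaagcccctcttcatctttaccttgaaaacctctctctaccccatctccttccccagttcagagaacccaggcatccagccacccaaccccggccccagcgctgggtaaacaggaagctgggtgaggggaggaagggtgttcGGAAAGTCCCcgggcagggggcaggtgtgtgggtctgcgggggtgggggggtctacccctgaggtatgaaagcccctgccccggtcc

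The X box core began 81 bases before the start of H2-Aa and 91 bases before that of H2-Eb1, with the Y box at 51 and 62 bases. Both strands of all 32851 promoters of the table were searched. CTGATTGG was found in 3.83% of them and GCAACT in 9.01%, while both at most 50 bases apart on the same strand were found in 10 promoters, or 0.0304%. H2-Aa, H2-Eb1 and H2-Eb2 were among those 10. The letters of the kappa B site were in 0.14% of promoters. The X box letters were chosen after these promoters had been read, and a match describes the letters of a window, not the binding of a factor. No promoter entry was held for H2-Ab1, Cd74, Ciita, Cd79b, Ms4a1, Blk, Cxcr5, Cd4, Cd8b1, Ccr7, Cd2 and Klrd1.

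In the BAT of vehicle replicate 2, 26 of the 36 genes were well above background, against 19 in vehicle replicate 1, 17 in AP replicate 1 and 20 in AP replicate 2. Of all 20145 named genes, 13371 were so in vehicle replicate 2, against 12802, 12873 and 12772 in the other mice in that order. 17 of the 36 genes were well above background in all 4 mice, 10 in none, and 5 in vehicle replicate 2 alone. Of the named genes, 12138 were so in all 4 mice and 6166 in none. Among the 17 genes detected in every mouse, 15 had their highest signal in vehicle replicate 2, where 23.2% of named genes detected in every mouse did so, and 12 stood there at least 2-fold above the mean of the other 3 mice, against 4.37% of those named genes. The median of the 17 genes was 1.59 above the mean of the others in vehicle replicate 2. Over all 36 genes, 27 were highest in that mouse, where 22.2% of all named genes were, and 5 of these 27 were not well above background in any mouse. These shares describe the contrast that the list was written for and are given without a test. In a whole tissue, more cells of a type and more RNA of these genes per cell cannot be told apart.

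**Figure D1:**
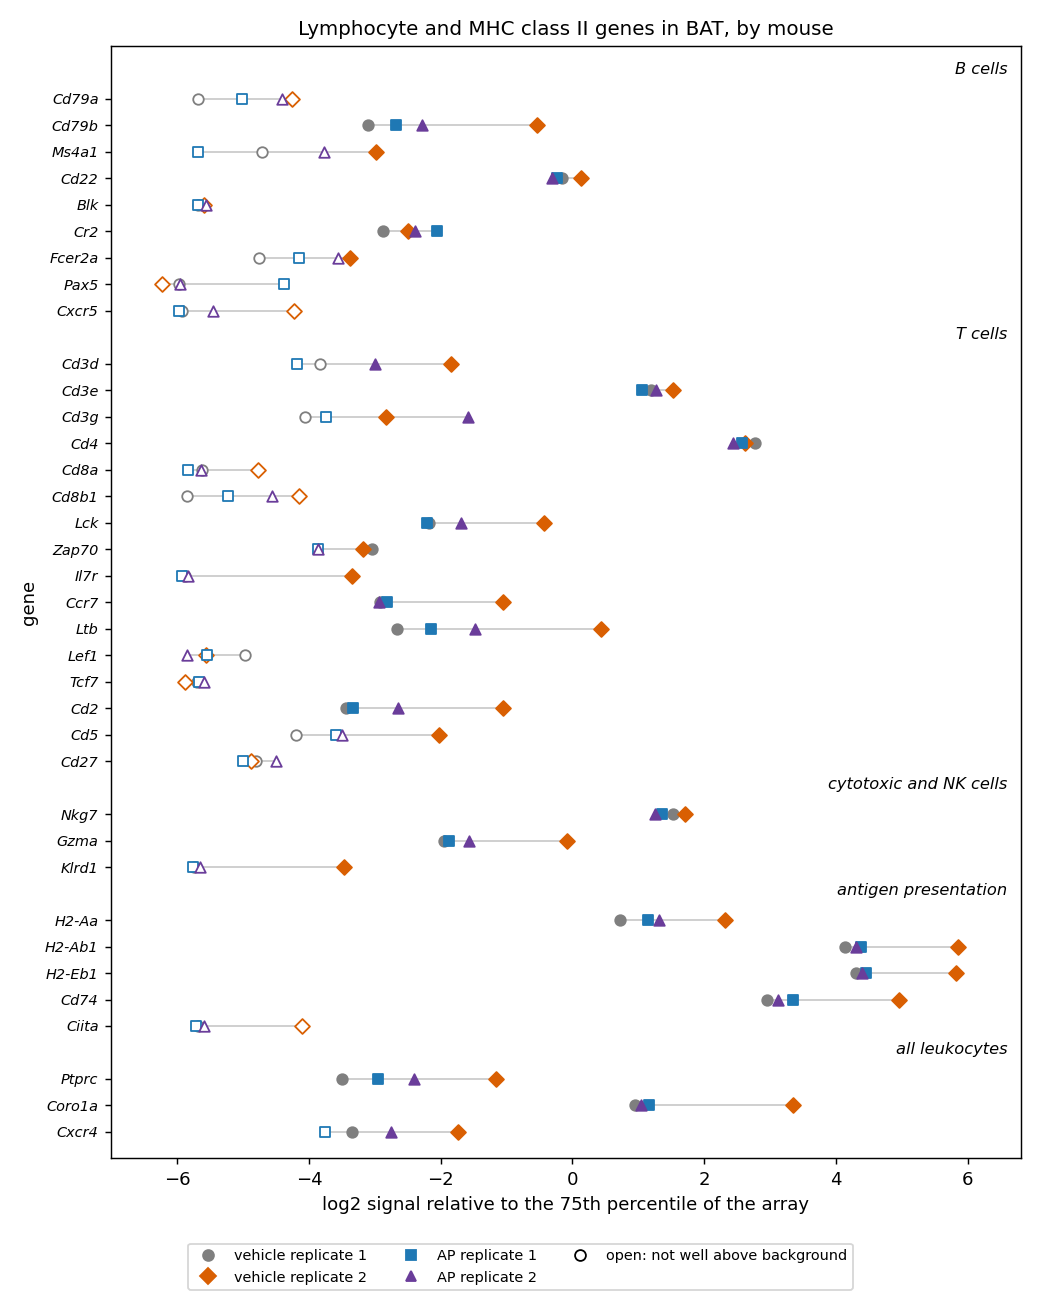
Signal of each of the 36 genes in each mouse (x axis, log2 over the array's 75th percentile; 1 symbol per mouse, open where not well above background, and 1 row per gene, using its brighter probe). The 4 bright genes of MHC class II and Coro1a, Ltb and Cd79b stand to the right in vehicle replicate 2, whereas Cd4, Cd3e, Cd22 and Nkg7 lie close together in the 4 mice and Cd79a, Blk, Pax5, Cd8a, Lef1, Tcf7 and Cd27 are open in every mouse.

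4 of the 5 genes of antigen presentation were detected in every mouse, and each was over 2-fold higher in vehicle replicate 2 than the mean of the others. H2-Ab1, the beta chain of I-A, stood at 4.13 in vehicle replicate 1, 5.85 in vehicle replicate 2, 4.39 in AP replicate 1 and 4.31 in AP replicate 2. A second H2-Ab1 probe gave 3.87, 5.58, 4.24 and 4.14 in the same order. Both probes placed vehicle replicate 2 apart, by 2.99-fold and 2.81-fold over the mean of the other 3 mice, which lay close together on either probe. H2-Eb1, the gene with the X and Y boxes at 91 and 62 bases, stood at 4.30, 5.82, 4.45 and 4.39. H2-Aa stood at 0.72, 2.32, 1.15 and 1.31. The invariant chain Cd74 stood at 2.95, 4.96, 3.35 and 3.12. All 4 genes were thus highest in vehicle replicate 2 and lowest in vehicle replicate 1, and the excess of vehicle replicate 2 over the others was 2.71-fold for H2-Eb1, 2.40-fold for H2-Aa and 3.52-fold for Cd74. Ciita, the coactivator of these genes, had signals of −5.68, −4.10, −5.71 and −5.59, not well above background in any mouse.

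Of 10 further genes of the class II pathway with a probe, 7 were highest in vehicle replicate 2, with a median of 0.59 over the other mice, against −0.19 for all named genes. H2-DMb1, a chain of the peptide exchanger H2-DM, stood at 0.53, 2.29, 0.30 and 0.82. Ctss, the protease that trims the invariant chain, stood at 0.98, 3.65, 1.63 and 1.35. The subunits of the complex that binds the X box differed from each other: Rfxank stood at 2.53, 1.81, 2.65 and 2.41 and was lowest in vehicle replicate 2, Rfxap stood at −1.83, −1.75, −2.09 and −2.17 and was highest there by a narrow margin, and Rfx5 was not well above background in any mouse. MHC class I, which nearly all cells carry, had a median of 0.35 in vehicle replicate 2 over 9 genes, of which 6 were highest there.

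Among T cell genes, the receptor complex gave no single picture. Cd3e, a chain of the CD3 complex, stood at 1.19, 1.53, 1.05 and 1.27, or 1.29-fold above the mean of the others in vehicle replicate 2. Cd3d stood at −1.84 in vehicle replicate 2 and −3.00 in AP replicate 2 and was not well above background in the other pair of mice. Cd3g stood at −2.83 in vehicle replicate 2 and at −1.59 in AP replicate 2, its highest value. Thus 3 subunits of the same complex differed in which mice stood apart.

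The coreceptor Cd4 stood at 2.76, 2.62, 2.57 and 2.44, with vehicle replicate 2 inside the range of the other mice. Its second probe was not well above background in any mouse, and neither were Cd8a on both probes and Cd8b1, the chains of the CD8 coreceptor. Of the signaling kinases, Lck stood at −2.18, −0.43, −2.20 and −1.69, or 3.01-fold higher in vehicle replicate 2 than the mean of the others. Zap70, which acts after Lck, stood at −3.05 and −3.18 in the vehicle-treated mice and was not well above background in either AP-treated mouse. Its second probe was well above background in vehicle replicate 2 alone, at −2.13, at least 2.95-fold above the mean of the other mice.

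Of the other T cell genes, Ltb, Ccr7 and Cd2 were detected in every mouse and were highest in vehicle replicate 2. Ltb, with the kappa B letters in its promoter, stood at −2.67, 0.43, −2.14 and −1.48, an excess of 5.77-fold that was the widest among the 17 genes detected in every mouse. Ccr7, the receptor that guides naive T cells and dendritic cells to lymph nodes, stood at −2.92, −1.05, −2.82 and −2.93, and the other 3 mice lay close together. Cd2, an adhesion receptor of T and NK cells, stood at −3.43, −1.05, −3.33 and −2.65. Its excess in vehicle replicate 2 was 4.23-fold and that of Ccr7 was 3.58-fold. Cd5, a T cell surface receptor, and Il7r, the receptor for the survival cytokine interleukin 7, were well above background in vehicle replicate 2 alone. They stood there at −2.02 and −3.34, at least 2.95-fold and 1.27-fold above the mean of the other mice. Lef1 and Tcf7, the transcription factors of naive T cells, and Cd27, a costimulatory receptor, were not well above background in any mouse on any probe. Of 16 further T cell genes with a probe, 11 were below that mark in every mouse and 7 were highest in vehicle replicate 2, with a median of 0.30 there. Skap1 and Lat, adaptors of T cell receptor signaling, were the pair of that list detected in vehicle replicate 2 alone, at −2.48 and −2.84.

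Among B cell genes, the receptor chains were divided. Cd79b stood at −3.11, −0.53, −2.68 and −2.28, or 4.46-fold higher in vehicle replicate 2. Its partner Cd79a stood at −5.69, −4.26, −5.01 and −4.41, not well above background in any mouse. Ms4a1, which encodes CD20, and Fcer2a, the low-affinity IgE receptor CD23, passed that mark in vehicle replicate 2 alone, at −2.98 and −3.38. That was at least 1.63-fold and 1.21-fold above the mean of the other mice. For Fcer2a the signal in AP replicate 2, below that mark, was close by at −3.56. The values of Ms4a1, Fcer2a, Cd5, Il7r and Klrd1 in vehicle replicate 2 were also above the lowest detected signal of each other mouse. Cd22, an inhibitory receptor, stood at −0.17, 0.14, −0.23 and −0.31. Cr2, the complement receptor CD21, stood at −2.88, −2.50, −2.06 and −2.39, highest in AP replicate 1. Blk, a kinase of B cell receptor signaling, Pax5, the transcription factor that defines the B lineage, and Cxcr5, the receptor that guides B cells into follicles, were not well above background in any mouse.

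Of 14 further B cell genes, 12 were highest in vehicle replicate 2 but 7 were below that mark in every mouse. Cd72, a receptor of B cells, stood at −1.87, −0.18, −1.71 and −1.66, and Fcmr, the receptor for IgM, was detected in vehicle replicate 2 alone, at −2.28. Of 6 plasma cell genes, 4 were highest in vehicle replicate 2, with a median of 0.36, but 2 of these, Mzb1 and Tnfrsf17, were below that mark in every mouse. Jchain, the joining chain of secreted antibodies that marks plasma cells, stood at −1.80, −0.74 and −2.63 in the first 3 mice and was not well above background in AP replicate 2. Irf4, of the same list, stood at −0.71, −1.44, 0.56 and −0.50, lowest in vehicle replicate 2.

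Of the cytotoxic genes, Gzma, which encodes the protease granzyme A, stood at −1.95, −0.08, −1.88 and −1.58, or 3.30-fold higher in vehicle replicate 2. Klrd1, the NK cell receptor chain CD94, was detected in that mouse alone, at −3.47 and at least 1.16-fold above the mean of the others. Nkg7, a granule protein, stood at 1.52, 1.71, 1.36 and 1.25, close together in the 4 mice. Of 9 further cytotoxic genes, 5 were highest in vehicle replicate 2, with a median of 1.14. Ccl5, a chemokine of T and NK cells, stood at −0.06, 1.89, 0.10 and 0.60, and the NK receptor Klrb1c was detected in vehicle replicate 2 alone, at −2.67. In contrast, Eomes, a transcription factor of NK and memory T cells, was detected in AP replicate 2 alone, at −1.08.

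The genes shared by leukocytes of all kinds were also highest in vehicle replicate 2. Ptprc, which encodes CD45, stood at −3.50, −1.16, −2.94 and −2.40. Coro1a, an actin regulator of leukocytes, stood at 0.95, 3.35, 1.16 and 1.03, with the other 3 mice close together. The excess of vehicle replicate 2 was 3.46-fold for Ptprc and 4.92-fold for Coro1a. Cxcr4, a chemokine receptor, stood at −3.35, −1.74 and −2.76 in vehicle replicate 1, vehicle replicate 2 and AP replicate 2, and was not well above background in AP replicate 1.

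10 of the 36 genes had 2 probes, and the probes of a gene did not always give the same picture. Both probes of H2-Ab1 were highest in vehicle replicate 2. For Nkg7, the brighter probe was 1.26-fold above the mean of the other mice there. Its other probe was detected in vehicle replicate 2 alone, at −1.54 and at least 4.30-fold above the mean of the others. For Zap70, the brighter probe put the vehicle-treated mice level and the other put vehicle replicate 2 apart. Pax5, Cd8a, Tcf7 and Cd27 were not well above background on either probe. Cr2, Cd2 and Cd4 were detected in every mouse on the brighter probe and in no mouse on the other. Over all 46 probes, 33 were highest in vehicle replicate 2.

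**Figure D2:**
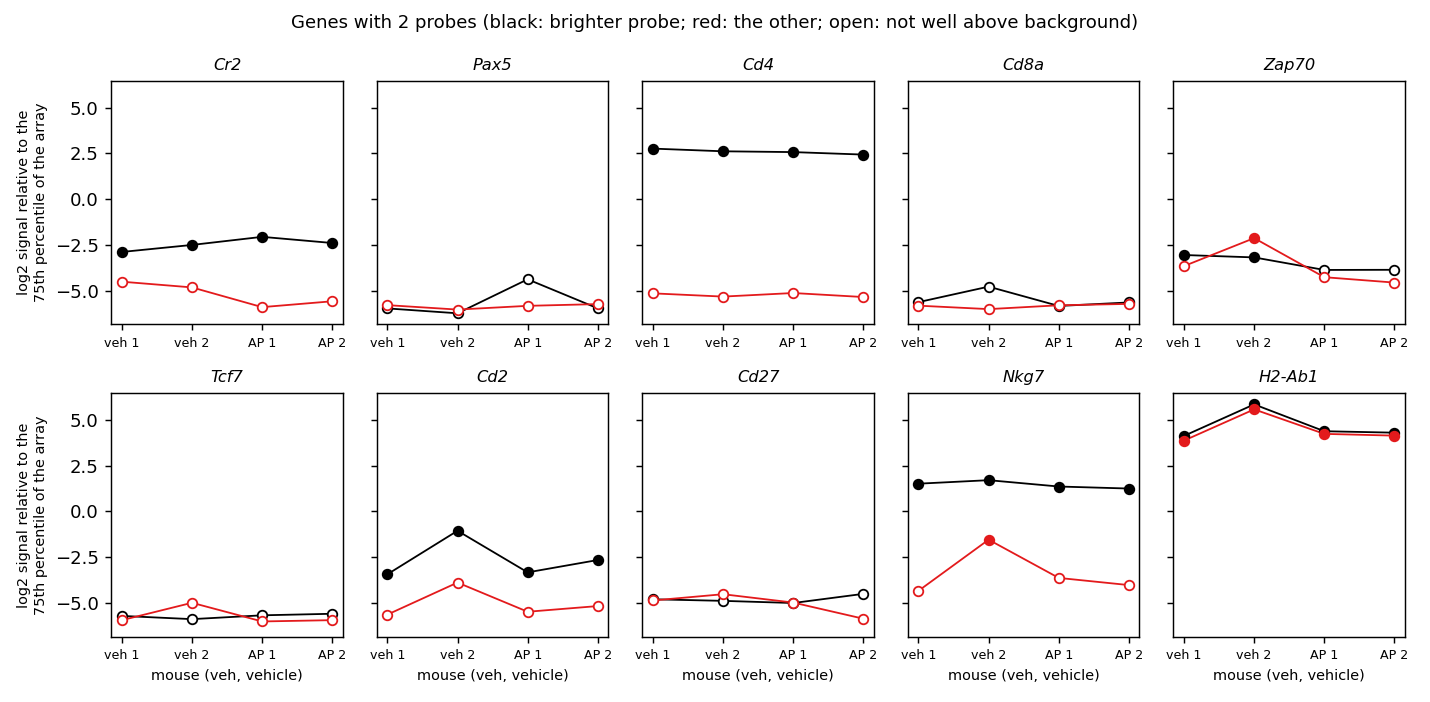
Signal of both probes of the 10 genes with 2 probes (y axis, log2 over the array's 75th percentile; x axis, mouse). The lines of H2-Ab1 run in parallel with a peak in vehicle replicate 2, those of Zap70 and Nkg7 differ in that mouse, and 4 genes have open symbols throughout.

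The label of lymphoid tissue was compared with the signals of each list. In vehicle replicate 2, 5 of the 9 B cell genes and 11 of the 16 T cell genes were well above background, where 13371 of 20145 named genes were. In vehicle replicate 1, AP replicate 1 and AP replicate 2, 3, 3 and 3 B cell genes and 7, 6 and 8 T cell genes were. Cd79b, Cd3e and Cd4 were detected in every mouse and Ms4a1 in vehicle replicate 2 alone, whereas Cd79a, Pax5, Cd8a and Tcf7 were not detected in any. Cd4 was detected on its brighter probe alone. In vehicle replicate 1, Cd3e and Cd4 stood at 1.19 and 2.76, Ptprc at −3.50, and Cd3d and Cd3g were not well above background. Whether the level signals of Cd3e and Cd4 came from T cells was not tested. Of 12 genes of lymph node stroma and vessels, 10 had a probe, and Ccl21a and Ccl21b had none matched by name. 5 of the 10 were well above background in vehicle replicate 2 and 4 to 5 in each other mouse, and 5 were not in any mouse. Only Il7 was highest in vehicle replicate 2, and it was not detected in any mouse. The median of the 10 there was −0.18 against −0.19 for all named genes, both with undetected genes included. Over genes detected in every mouse, 4 of this list, it was −0.034 against −0.096. Ccl19, a chemokine made by the stroma of T cell zones, stood at −1.66, −1.71, −1.58 and −1.78, and Cxcl13, the chemokine of B cell follicles, at 0.39, −1.56, 0.38 and −2.10. Lyve1, a receptor of lymphatic vessels and some macrophages, stood at −1.26, −0.93, −0.67 and −1.71, and Madcam1, an addressin of vessels that lymphocytes enter by, at −3.63, −3.18 and −3.56 in vehicle replicate 2, AP replicate 1 and AP replicate 2. Neither was highest in vehicle replicate 2. Glycam1 and Chst4, which mark the high endothelial venules of lymph nodes, and Prox1, which marks lymphatic vessels, were not well above background in any mouse. Without Ltbr, its brightest gene, the summed signal of that list was 0.000426% and 0.000311% of the array total with vehicle and 0.000531% and 0.000213% with AP. Of 7 thymus genes, 6 were not well above background in any mouse. Whether lymphoid tissue lay in the sample of vehicle replicate 2 was not tested.

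Genes of some other cells moved with the same mouse. Of 5 neutrophil, 5 mast cell and 5 erythroid genes with a probe, 0 were highest in vehicle replicate 2, with medians of −0.22, −0.26 and −0.36. Of 5 endothelial genes, 2 were highest there, with a median of 0.23. Itgax, the integrin CD11c of dendritic cells and some macrophages, stood at 1.09 in vehicle replicate 2, at −2.78 and −2.39 in the AP-treated mice, and was not well above background in vehicle replicate 1. Of 13 macrophage genes, 9 were highest in vehicle replicate 2 with a median of 0.79, among them Lyz2, the lysozyme of macrophages, at −1.06, 1.42, −0.24 and −0.52. Their summed signal was 0.00803% and 0.0132% of the array total with vehicle and 0.00774% and 0.00685% with AP. Without Itgam, the brightest macrophage gene, it was 0.00445% and 0.00994% with vehicle and 0.00619% and 0.00458% with AP. Cd163 was not well above background in any mouse. Of 8 dendritic cell genes, 6 were highest in vehicle replicate 2, with a median of 0.75. Among these 6, Xcr1 and Clec9a, which define a subset of these cells, were not well above background in any mouse. Of the 4 genes of that list detected in every mouse, 2 were highest there, with a median of 0.37. Zbtb46, of the same list, stood at −2.31, −2.60, −2.09 and −1.54, lowest in vehicle replicate 2. The summed signal of the dendritic list was 0.0290% and 0.0305% with vehicle and 0.0262% and 0.0412% with AP, nearly all of it from Siglech, and without that gene 0.000137% and 0.000795% with vehicle and 0.000187% and 0.000212% with AP. The part of myeloid cells in the MHC class II signal was not tested.

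The cell cycle gene Mki67 stood at −2.69, 0.50, −2.58 and −2.63, and Top2a was detected in vehicle replicate 2 alone, at −2.60. Cxcl10, a chemokine induced by interferon, stood at −0.54, 2.06, −0.17 and 0.72. All 13 skeletal muscle genes were highest in vehicle replicate 2 and lowest in vehicle replicate 1. Their summed signal was 0.0169% and 0.229% of the array total with vehicle and 0.136% and 0.0760% with AP. Of 7 white adipose genes, 3 were highest in vehicle replicate 2, with a median of 0.22, and 4 were not well above background in any mouse. Over the 3 genes of that list detected in every mouse, of which 2 were highest there, the median was 1.86. Lep, the leptin gene, stood at 0.04, 1.45, −0.63 and −0.63, and Nnat, of the same list, at −0.40, 3.23, 0.19 and −0.10. Of 12 brown adipocyte genes, 2 were highest in vehicle replicate 2, with a median of −0.28. Elovl3, a fatty acid elongase of brown fat, stood at 6.08, −1.07, 3.52 and 5.76, lowest in vehicle replicate 2, and Ucp1, the uncoupling protein of brown fat, at 10.41, 9.66, 9.66 and 10.25. The summed signal of the 36 genes was 0.0122% and 0.0415% with vehicle and 0.0154% and 0.0145% with AP, of which antigen presentation made 0.00901%, 0.0345%, 0.0119% and 0.0110%. The part of muscle, white fat or cycling cells in these signals was not tested.

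**Figure D3:**
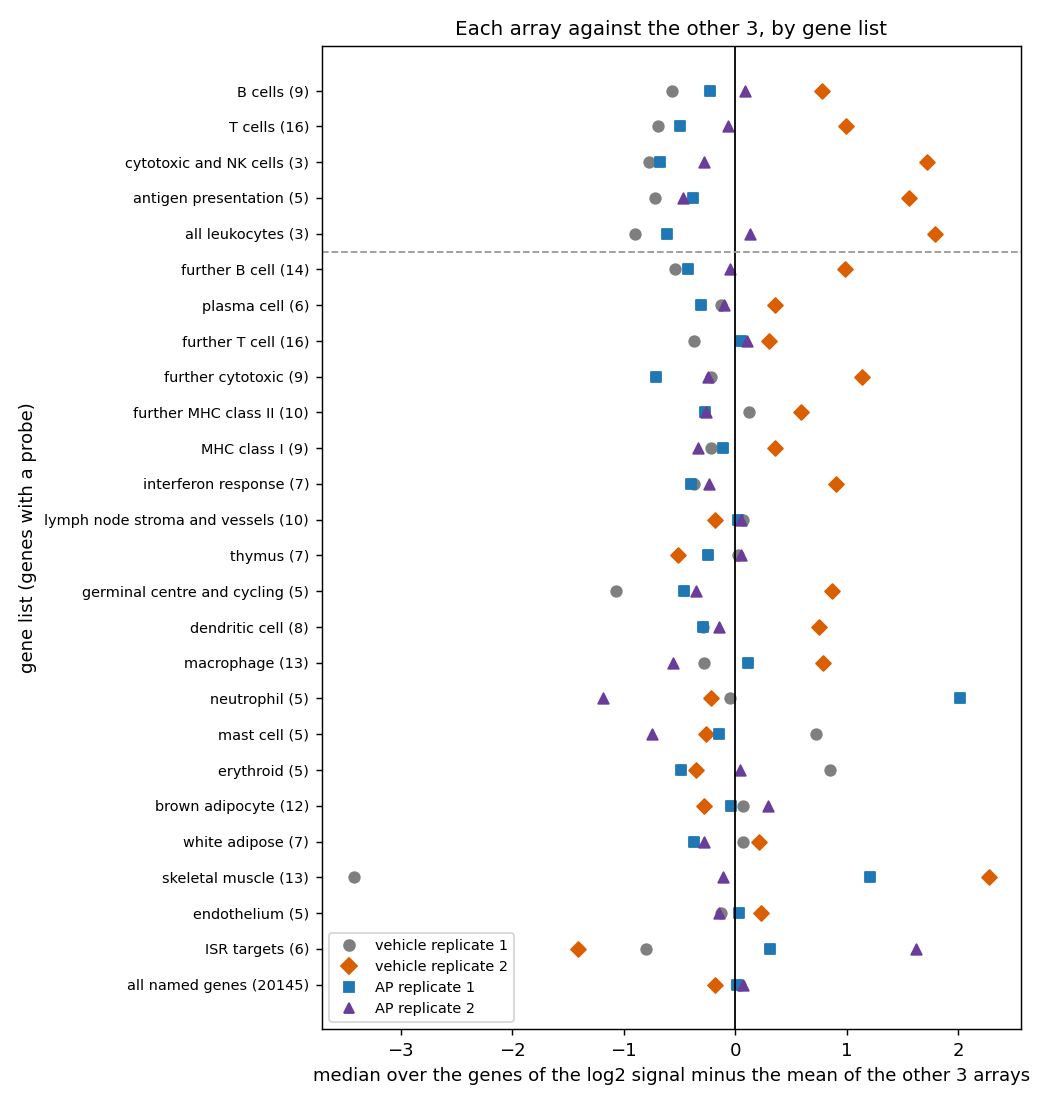
Median over the genes of each list of the signal in each mouse minus the mean of the other 3 (x axis, log2 units; 1 symbol per mouse; y axis, list with its number of genes that have a probe). The 5 lists above the dashed line hold the 36 genes, with vehicle replicate 2 at 0.77 to 1.79, while for lymph node stroma and vessels vehicle replicate 2 lies at −0.18 and for skeletal muscle at 2.27.

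AP-treated mice were then compared with vehicle-treated mice with limma over 24970 probes, which held 19 of the 36 genes, those well above background in both mice of a group. This comparison asked whether 12 h of eIF2α phosphorylation in fat went with a change in these genes. It uses vehicle replicate 2, so it is not independent of the choice of the list. Adjusted p-values of limma were 0.80 to 0.94 for the 19 genes, and 0 of 24970 probes (0%) were under the adjusted threshold of 0.05. At an unadjusted p of 0.05, 1 of the 19 genes and 1515 of 24970 probes (6.07%) passed. With 2 mice against 2, the smallest p that an exact permutation test (two-sided) allows for any gene is 0.333.

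The mean was lower in AP-treated mice for 18 of the 19 genes, against 51.4% of all probes, with a median difference of −0.65 against −0.01. Zap70 and Cxcr4 entered the comparison through the vehicle-treated mice alone, so their lower means with AP are not independent of that filter. Over the 17 genes detected in every mouse the median difference was −0.64. Coro1a had the widest difference, −1.05 ± 0.82 (SE, n = 2 mice a group, adjusted p of limma 0.83). For H2-Ab1 it was −0.65 ± 0.60 (adjusted p of limma 0.84), for Cd74 −0.72 ± 0.70 (adjusted p of limma 0.85) and for Ltb −0.69 ± 1.07 (adjusted p of limma 0.90). None of these differences was larger than the spread between the mice. For 14 of the 19 genes the values of the groups overlapped.

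Both AP-treated mice lay below both vehicle-treated mice for 4 of the 19 genes, Cd22, Cd4, Zap70 and Nkg7, where 20.4% of all probes did so. Both lay above for Cr2, 1 of the 19, against 18% of all probes. The first share lay near the background and the second below it. The second probe of Cr2, not well above background in any mouse, put both AP-treated mice below both vehicle-treated mice. Zap70 was the 1 gene with an unadjusted p under 0.05. It entered the comparison through the vehicle-treated mice alone and was not well above background in either AP-treated mouse, so its signal gives only a bound, at least 1.50-fold lower with AP, and with normexp background correction its difference was −0.083 on the log2 scale.

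The direction rested on vehicle replicate 2. Against vehicle replicate 1 alone, 14 of the 19 genes were higher in the AP-treated mice, against 44.1% of all probes, with a median of 0.22. Against vehicle replicate 2 alone, 18 of 19 were lower, against 46.7% of all probes, with a median of −1.51. H2-Ab1 lay 0.22 above vehicle replicate 1 and 1.51 below vehicle replicate 2, and Ptprc 0.83 above and 1.51 below. Cd22, Cd3e, Cd4, Zap70 and Nkg7 were lower against either mouse, and Cr2 was higher against either. With another background correction, normexp, the median difference over the 19 genes was −0.27, and the excess of vehicle replicate 2 over the others was 0.71 in place of 1.58. Without AP replicate 1 the median difference was −0.36 over the 21 genes then kept.

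**Figure D4:**
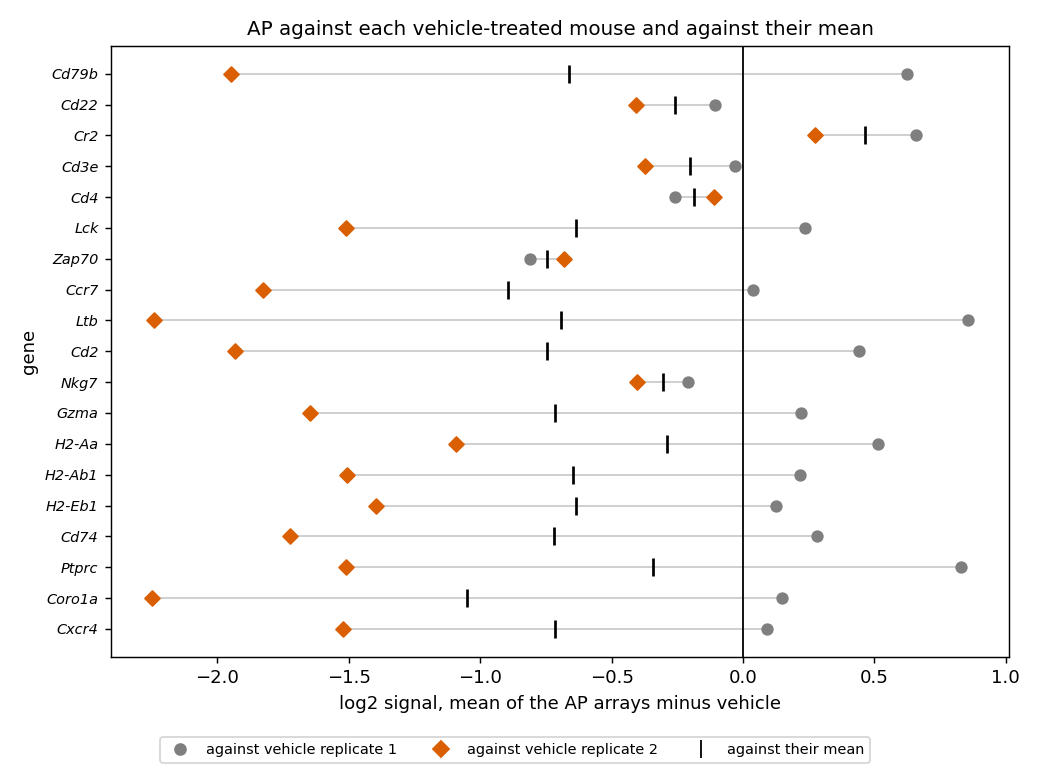
Mean of the AP-treated mice minus vehicle for the 19 genes in the limma comparison (x axis, log2 units; gray circles against vehicle replicate 1, orange diamonds against vehicle replicate 2, black ticks against their mean; y axis, gene). For 13 of the 19 genes the circle lies right of 0 and the diamond left of it, so the sign of the difference changed with the vehicle-treated mouse used.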

How the data were processed

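BAT RNA of 4 Tg mice was labeled with Cy3 and hybridized to 1 Agilent array per mouse. The authors extracted the scans with Agilent Feature Extraction 10.7.1.1, per the labels, and deposited the processed intensity of each of 62976 spots, background-subtracted and not normalized between arrays. A second deposited table holds the authors' log2 values, centered on an unstated value for each probe, with column medians of −0.284, −0.16, −0.437 and −0.293 in vehicle 1, vehicle 2, AP 1 and AP 2. Its normalization is not given in the sources used here, and it served as an alternative.

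From the deposited intensities, control and outlier spots were left out (119 to 185 outliers per array; 0 spots were saturated), each array was scaled to its 75th percentile on the log2 scale, and spots of a probe were averaged. Symbols came from RefSeq accessions (26582 of 55681 probes matched). For a gene with 2 probes, the one with the higher mean was used and the other is given beside it. A probe was kept if well above background in both mice of a group (24970 probes). AP was compared with vehicle by limma 3.58.1 (lmFit, eBayes; R 4.3.3) with Benjamini-Hochberg adjustment, on all 4 arrays and without a block, since nothing says that replicate numbers pair the mice. The script was tested on simulated data. The number of arrays limits the precision. Replicates were no copies: Pearson's r was 0.972 between vehicle and 0.981 between AP arrays.

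A probe below background in a group has only a bound, written "at least": the bright mean over the dim mean, each dim array taken at the higher of its lowest detected signal and the probe's own signal. The text names all 36 genes, genes of 20 other lists where a defining gene is high or not detected, Trib3, and the 10 genes with the greatest excess in vehicle replicate 2. The members and lists were chosen with earlier results of these data known. The alternatives were normexp, quantile and median scaling, no filter, detection on all arrays, the authors' table, a replicate block, a variance trend, the methods' t-test, the mean of a gene's probes and leaving out each mouse. Normexp, with an offset of 50, used the median spot signal. No block for slide or scan could be fitted, with 1 of each. Some genes of these lists are not reported here.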

Additional observations from a re-analysis of the deposited data

How the results depend on the processing

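The count of probes under an adjusted p of 0.05 was 0 in every alternative run. Under an unadjusted p of 0.05 it was 1515, and 2610 with no filter on dim probes. Leaving out 1 mouse gave 1349 to 2758, the highest without vehicle replicate 1. For the 19 genes, the median of AP minus vehicle was −0.65 and ran from −0.81 with the authors' table, where all probes shifted by −0.17, to −0.27 with normexp; leaving out 1 mouse, with 19 to 26 genes then kept, gave −1.52 (26 genes, without vehicle replicate 1) to 0.22 (19 genes, without vehicle replicate 2). With median scaling, all probes had a median of 0.07 and the 19 genes of −0.56. The excess of vehicle replicate 2 was 1.58 and ran from 0.71 with normexp to 1.86 with the authors' table, and from 1.50 to 1.76 when 1 of the other mice was left out. With the replicate number as a block, the median was −0.65 and 1227 probes passed the unadjusted and 0 the adjusted threshold. Same-numbered samples deviated with r of −0.128, and the crossed pairing, chosen after seeing the data, gave 1567 and 0. The methods' t-test gave 1478 probes at an unadjusted p of 0.05 and 0 after Benjamini-Hochberg adjustment. Of 264 single-gene values under the alternatives, 251 kept their direction and 13 reversed, all without vehicle replicate 2. Leaving out 1 mouse moved them, from the lowest value to the highest, as follows: Cd79b −1.95 to 0.63, Lck −1.51 to 0.24, Ccr7 −1.82 to 0.039, Ltb −2.24 to 0.86, Cd2 −1.93 to 0.44, Gzma −1.65 to 0.22, H2-Aa −1.09 to 0.51, H2-Ab1 −1.51 to 0.22, H2-Eb1 −1.40 to 0.12, Cd74 −1.72 to 0.28, Ptprc −1.51 to 0.83, Coro1a −2.25 to 0.15 and Cxcr4 −1.52 to 0.091. The smallest adjusted p of limma among them was 0.174, and the cause of the differences between settings was not tested. Signal over background limits the 10 genes that were not detected in any mouse, whose RNA may lie under what these probes show.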

Other observations

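The 10 named genes with the greatest gap between vehicle replicate 2 and the highest other mouse, with undetected signals taken at their value, were Gm5434, Tmco5, Gabbr2, Omg, Otor, Ttc9b, Ear10, Hoxc13, Vsig8 and 4930505A04Rik. All 10 were not well above background in the other 3 mice, so only bounds hold, from at least 4.27-fold for Vsig8 to at least 14.7-fold for Ear10, and their order is not given. Among them, Gabbr2 encodes a subunit of the GABA B receptor, Omg a glycoprotein of myelin and Ear10 a ribonuclease of the eosinophil family. None of the 36 genes was in that group. Dntt, the template-independent DNA polymerase of lymphocyte precursors, was the gene of the thymus list that passed the background mark, in vehicle replicate 2 alone, at −3.31. Its signals below that mark were close by, at −3.47 in vehicle replicate 1, −3.80 in AP replicate 1 and −3.47 in AP replicate 2.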
